A study of Bos taurus with 8 samples.

Results

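The inner cell mass (ICM) and the trophectoderm (TE) of bovine blastocysts were compared at day 9 of culture. The comparison took 4 of the 8 arrays of the series, 2 for ICM and 2 for TE, chosen by the tissue their labels name. It covered 43653 gene probes, of which 27952 could be given 1 of 12552 gene names. All embryos were produced in vitro from slaughterhouse oocytes, matured, fertilized and cultured without further treatment. ICM and TE were cut apart by needle from the same blastocysts, so each sample is a pool of dissected pieces, and according to the study a few TE cells stay attached to the ICM. The other arrays held intact day 9 blastocysts (2 arrays) and day 5 morulae (2 arrays). Every sample was hybridised together with the same pool of blastocyst RNA, and each value below is the log2 ratio of a sample to that pool, so 0 means the level of the pool and 1 means 2-fold above it.

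At the blastocyst stage the mammalian embryo holds its first separate cell lineages. The outer TE is a polarised epithelium that pumps fluid into the cavity and later forms the trophoblast of the placenta. The ICM holds epiblast cells, which give rise to the fetus, and primitive endoderm cells, which line the cavity and lay down a basement membrane. In ruminants the TE elongates before implantation and secretes interferon tau and pregnancy-associated glycoproteins.

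The ICM arrays had median sample intensities of 230 and 402 for replicates 1 and 2, and the TE arrays had 351 and 493, over a local background with a median between 47.5 and 50.3. Between 92.3% and 94.5% of gene probes lay above background on these 4 arrays. Replicate 1 of every group carried the sample in Cy3 and replicate 2 carried it in Cy5, so the dye and the replicate number cannot be told apart. Log2 ratios of the replicates correlated across gene probes at 0.37 for ICM and 0.52 for TE, and the ICM minus TE difference of pair 1 correlated with that of pair 2 at 0.57. The intact blastocyst arrays, labelled in opposite dyes and set against a pool of their own stage, correlated at -0.55. The study states that these 2 blastocyst samples are the same as its blastocyst pools 1 and 2, so they may not be independent of the pool. All these correlations are descriptions across probes of arrays that share the pool. The arrays hold RNA of bulk tissue, so fewer cells of a type and less RNA per cell cannot be told apart.

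With limits of 0.05 on the adjusted p and 2-fold on the difference, 168 genes were higher in ICM than in TE (1.34% of 12552 genes tested) and 29 were lower (0.231%). A gene is called higher or lower below when it met both limits. Under these limits more genes lay toward ICM, while without them the directions were near even: an unadjusted p under 0.05 was found for 1312 genes toward ICM (10.5%) and 1428 toward TE (11.4%). The median called fold was 2.80 for genes higher in ICM and 2.11 for genes lower in ICM, and the maximum was 13.2-fold and 2.58-fold. At least 4-fold differences were measured for 44 genes, all of them higher in ICM. All called genes had non-overlapping ICM and TE values, a pattern found in 44.8% of all genes tested (22.1% higher and 22.7% lower in ICM). In the plot of the pairwise differences the called genes lie in the upper right and lower left corners, away from both axes. The counts leaned on each array. The fit called 69 genes higher and 1 lower without ICM replicate 1, 17 and 0 without ICM replicate 2, 38 and 2 without TE replicate 1, and 36 and 1 without TE replicate 2. Another background correction (normexp) left 27 higher and 0 lower. Centring each array on its median in place of the intensity-dependent correction gave 147 higher and 78 lower, so that 65.3% rather than 85.3% of the called genes were higher in ICM.

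**Figure D1:**
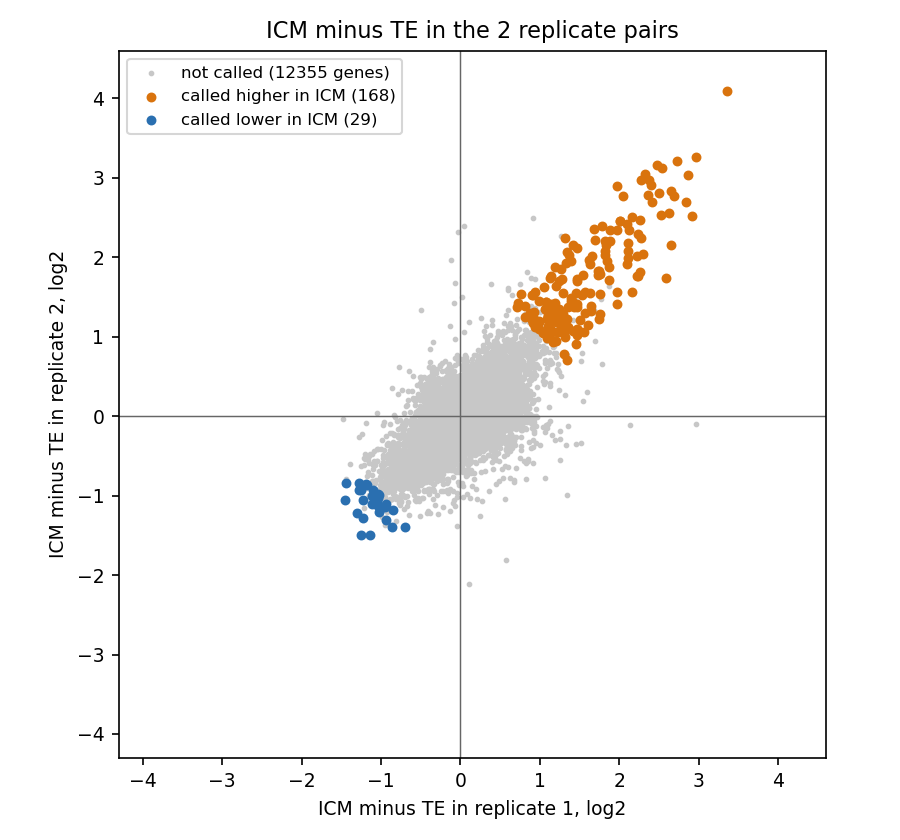
ICM minus TE log2 difference of each of 12552 genes in replicate 1 (horizontal axis) and replicate 2 (vertical axis), with 168 genes called higher in ICM, 29 called lower and the others in grey. The called genes have the same sign in both pairs, and the higher ones reach farther from 0 than the lower ones.

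Of the 168 genes higher in ICM, 167 lay above the pool on both ICM arrays and below it on both TE arrays. Their median ratio was 0.78 in ICM and -0.75 in TE. Of the 29 genes lower in ICM, 27 lay below the pool on both ICM arrays and above it on both TE arrays, with medians of -0.68 in ICM and 0.46 in TE. The pool is RNA of whole blastocysts, which hold both tissues. Genes selected for a wide gap between ICM and TE therefore tend to lie on both sides of it by design. The genes lower in ICM gave brighter spots, with a median intensity of 9390 over all arrays, against 1552 for the genes higher in ICM and 1066 for all genes.

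NANOG and SOX2 had the largest called differences among named genes. Of 22 measured epiblast and pluripotency factors, 4 were higher in ICM, none was lower, and the median difference was 0.23, against 0.01 over all genes tested. These 4 were NANOG, SOX2, ZIC2 and PRDM14. The study reports each of these genes as higher in ICM on these same arrays. The count of the list is therefore no independent evidence of a direction. None of the 18 that were not called had an unadjusted p under 0.05 toward TE. Under normexp the list had 2 genes called higher, none called lower, and a median of 0.14. NANOG, the homeodomain factor of the epiblast, had log2 ratios of 0.99 and 1.59 in ICM, against -2.37 and -2.50 in TE. It was 13.2-fold higher in ICM (log2 difference 3.73 ± 0.23 SE, limma adjusted p = 0.0033), with both ICM arrays above the pool and both TE arrays far below it. The 3 probes of NANOG gave differences between 0.42 and 3.73, and 2 of them were called. SOX2, which acts with POU5F1 in maintaining pluripotency, had 0.94 and 1.19 in ICM, against -2.02 and -2.07 in TE. Its difference was 3.12 ± 0.19 (adjusted p = 0.0033, 8.67-fold), and 3 of its 5 probes were called. The TE values of SOX2 lay close together and about as far below the pool as those of NANOG.

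ZIC2, a zinc finger transcription factor, had 1.20 and 0.66 in ICM, against -1.39 and -1.08 in TE (difference 2.17 ± 0.30, adjusted p = 0.0248). PRDM14, a factor of pluripotent and germ cells in mouse and human, had 0.50 and 1.03 in ICM, against -0.54 and -0.60 in TE (difference 1.34 ± 0.17, adjusted p = 0.0183). Both genes had all ICM values above and all TE values below the pool. SALL1, a zinc finger factor, had 1.12 and 0.45 in ICM, against 0.12 and -0.33 in TE, and did not meet the limits (adjusted p = 0.0678). Several factors known from mouse pluripotency had small differences that did not pass: KLF5 at 0.27, KLF4 at 0.16, DNMT3L at 0.07 and SALL4 at 0.03. POU5F1, CDX2 and interferon tau had no probe with their name and were not analysed here.

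**Figure D2:**
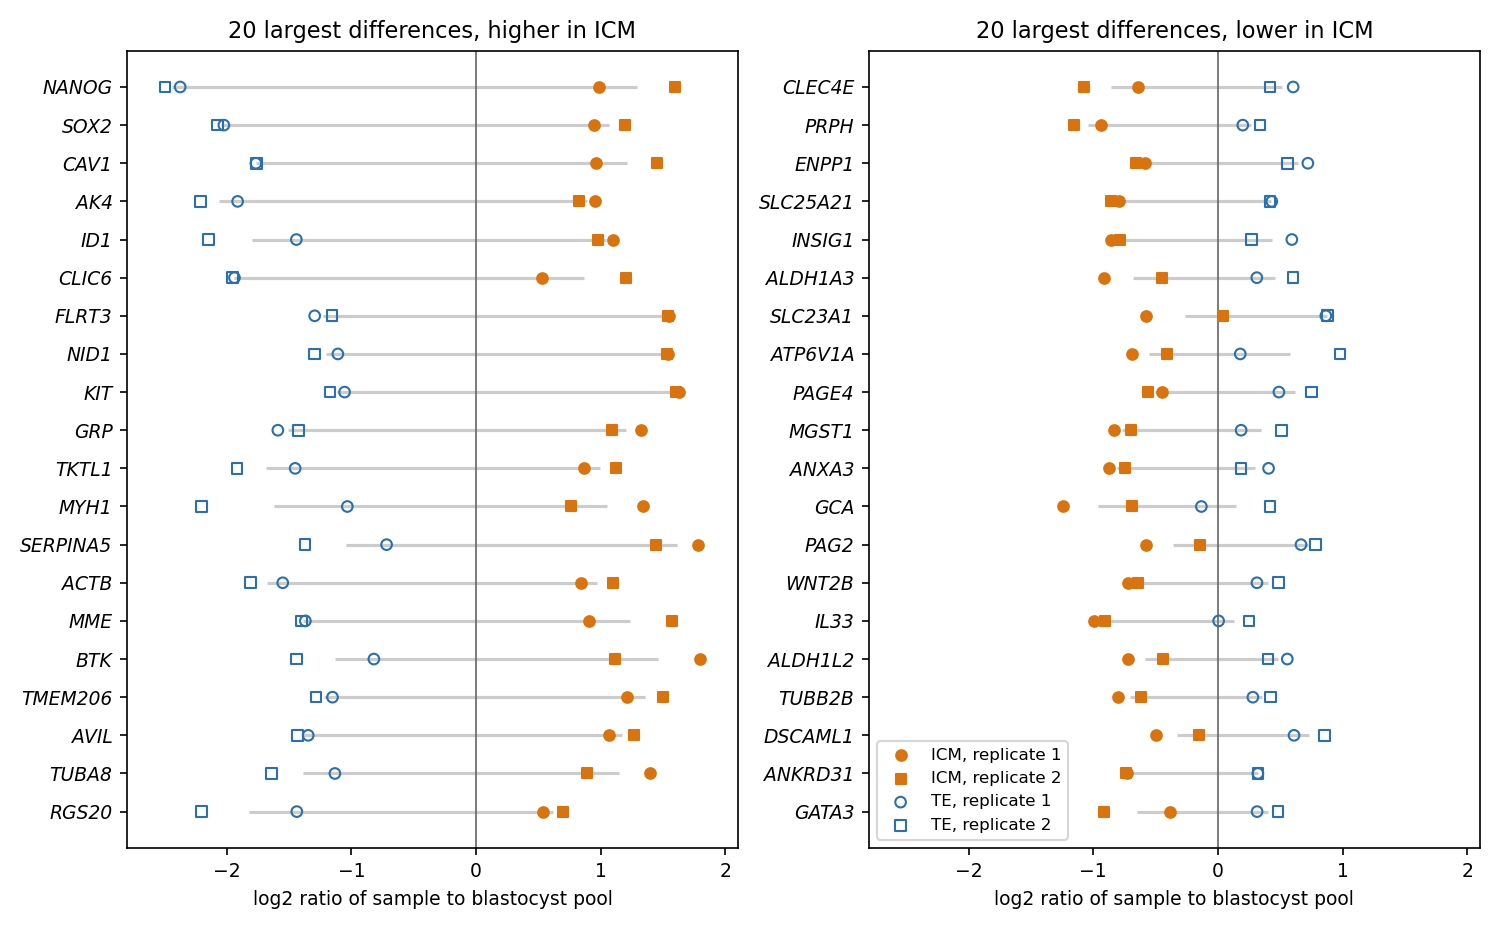
Log2 ratio of sample to blastocyst pool on each ICM and TE array for the 20 genes with the largest called differences in each direction, with ICM as filled and TE as open symbols, replicate 1 as circles, replicate 2 as squares, and a grey bar joining the group means. NANOG, SOX2 and CAV1 head the genes higher in ICM, and the genes lower in ICM span much shorter bars.

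Trophectoderm transcription factors differed by small amounts. Of 34 measured, 1 was lower in ICM, none was higher and the median difference was -0.09, while 11 had an unadjusted p under 0.05 in the direction of TE and 4 in the direction of ICM. The called factor was GATA3, a zinc finger factor of trophoblast, at -0.39 and -0.91 in ICM, against 0.31 and 0.48 in TE. It was 2.07-fold higher in TE (difference -1.05 ± 0.19, adjusted p = 0.0496), just inside both limits, and its other probe gave a difference of 0.05. In the fit to the 4 ICM and TE arrays alone GATA3 was not called (adjusted p = 0.0748). The GATA3 arrays did not overlap between the tissues, but their distance was a fraction of that seen for NANOG or SOX2.

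GRHL1, an epithelial factor, had -0.39 and -0.40 in ICM, against 0.42 and 0.64 in TE (adjusted p = 0.0565). TFAP2A, of the AP-2 family, had -0.32 and -0.59 in ICM, against 0.34 and 0.54 in TE (adjusted p = 0.0589). Both fell short of the limits with values that did not overlap. ASCL2, GATA2, ELF5 and TEAD4 had differences of -0.63, -0.56, -0.46 and -0.36 and were not called. WWTR1, which encodes the HIPPO pathway effector TAZ, ran the other way: it had 0.35 and 0.34 in ICM, against -0.55 and -0.58 in TE (difference 0.91 ± 0.10, adjusted p = 0.0124), under the 2-fold limit. Of the 22 measured genes of the HIPPO pathway none was called, and 3 had an unadjusted p under 0.05 toward ICM and 8 toward TE.

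Among 22 measured trophoblast products and keratins, 2 were lower in ICM and 1 was higher, with a median of -0.08 that was 0.02 under median centring. PAGE4, a small acidic protein of the GAGE/PAGE family, had -0.45 and -0.56 in ICM, against 0.49 and 0.75 in TE (difference -1.12 ± 0.12, adjusted p = 0.0126). ANXA3, a calcium-dependent membrane binding protein, had -0.88 and -0.75 in ICM, against 0.41 and 0.18 in TE (difference -1.11 ± 0.17, adjusted p = 0.0329). KRT7, a keratin of simple epithelia and trophoblast, went against its list. It had 0.87 and 0.65 in ICM, against -1.10 and -0.91 in TE (difference 1.77 ± 0.26, adjusted p = 0.0285, 3.40-fold), and both of its probes were called. KRT19, another keratin of simple epithelia, had -0.67 and -0.43 in ICM, against 0.39 and 0.50 in TE, and did not pass (adjusted p = 0.115).

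Pregnancy-associated glycoproteins are aspartic protease relatives that the ruminant trophoblast secretes, encoded by a large family of similar genes whose probes may share transcripts. Of 10 measured members, 1 was called lower in ICM, 8 had all ICM values below all TE values (22.7% of all genes tested did), and the median difference was -0.76. PAG2 had -0.58 and -0.14 in ICM, against 0.67 and 0.78 in TE (difference -1.09 ± 0.20, adjusted p = 0.0462). PAG17 had -0.43 and -0.26 in ICM, against 0.60 and 0.43 in TE, with a difference of -0.86 ± 0.13 that lay under the 2-fold limit (adjusted p = 0.0319).

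Primitive endoderm candidates divided between strong and flat ones. The list joins known markers with genes that the study reported as higher in ICM on these same arrays. Among these are FLRT3, SERPINA5, PRSS12, MEIS2, GKN2, ADH6 and FST, so the count of the list is no independent evidence of a direction. The study proposes a part in primitive endoderm for ICM genes that fell when embryos were cultured with a MAP kinase pathway inhibitor. PRSS12 rose there instead, and FLRT3 was not listed as changed. Of 32 measured members of the list, 6 were higher in ICM, none was lower, and the median difference was 0.15. FLRT3, a leucine-rich repeat adhesion protein that binds FGF receptors, had 1.55 and 1.54 in ICM, against -1.30 and -1.16 in TE (difference 2.77 ± 0.24, adjusted p = 0.00764, 6.81-fold), with 1 of its 3 probes called and 0.03 as the smallest difference among them. SERPINA5, the protein C inhibitor, had 1.78 and 1.44 in ICM, against -0.72 and -1.37 in TE (difference 2.66 ± 0.11, adjusted p = 0.00255, 6.31-fold). The ICM arrays agreed closely for FLRT3, and for both genes every TE value lay well below the pool. PRSS12, a secreted serine protease, had a difference of 2.23 ± 0.30 (adjusted p = 0.0222). MEIS2, a homeodomain cofactor, had 1.89 ± 0.15 (adjusted p = 0.00608). SPARC, a matrix-binding glycoprotein, had 1.67 ± 0.24 (adjusted p = 0.0278), with 5 of its 6 probes called. GKN2, the sixth, is a gastrokine and had a difference of 1.43 ± 0.15 (adjusted p = 0.0121).

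The transcription factors that specify primitive endoderm in mouse were among the flat ones. GATA6 had 0.05 and 0.58 in ICM, against 0.11 and 0.16 in TE, so the groups overlapped (difference 0.18 ± 0.17, adjusted p = 0.75). By staining, the study found GATA6 protein throughout its TE samples, so in these tissues GATA6 was not confined to ICM. GATA4 at 0.21, SOX17 at 0.14 and HNF4A at -0.03 were not called either. The study, however, lists HNF4A among its most differing genes, higher in ICM. The 3 probes named HNF4A here gave differences between -0.03 and 0.10, and why the results differ was not tested. DAB2, an endocytic adaptor, had -1.06 and -0.66 in ICM, against 0.09 and 0.34 in TE (adjusted p = 0.0842), while another of its probes was called lower in ICM at -1.35. FST, the activin antagonist follistatin, had -0.31 and 0.89 in ICM, against -1.37 and -0.56 in TE. It was not called (adjusted p = 0.277), and its values rose from replicate 1 to replicate 2 in both tissues.

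Matrix genes were mixed. Of 23 measured genes of the basement membrane and its receptors, 2 were called, NID1 and SPARC, both higher in ICM, and the median was 0.04. NID1 encodes nidogen, which links laminin to collagen IV. It had 1.54 and 1.53 in ICM, against -1.11 and -1.30 in TE (difference 2.74 ± 0.17, adjusted p = 0.0033, 6.68-fold), and 2 of its 5 probes were called. The laminin chains LAMC1 and LAMB1 had differences of -0.43 and -0.25 and the collagen IV chain COL4A2 had 0.03, none of them called. SERPINH1, the collagen chaperone, had 0.75 and 0.77 in ICM, against -0.71 and -0.67 in TE. Its adjusted p was 0.145 in the fit to 8 arrays and 0.016 in the fit to the 4 ICM and TE arrays alone.

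The cytoskeleton held some of the widest gaps. Of 39 measured genes of caveolae, actomyosin and intermediate filaments, 4 were higher in ICM and 1 was lower, with a median of -0.06. CAV1, the main protein of caveolae, had 0.96 and 1.45 in ICM, against -1.77 and -1.76 in TE (difference 2.97 ± 0.16, adjusted p = 0.00283, 7.84-fold), but only 1 of its 5 probes was called and the smallest difference among them was 0.45. ACTB, the cytoplasmic beta actin, had 0.85 and 1.10 in ICM, against -1.55 and -1.81 in TE (difference 2.65 ± 0.32, adjusted p = 0.0161, 6.29-fold), and 2 of its 3 probes were called. The gamma actin gene ACTG1 had a difference of -0.26 and was not called. ACTB was 1 of 14 genes listed as common reference genes for expression, and the only one called. The median of these genes was 0.26, with 13 of 14 positive, and 5 had an unadjusted p under 0.05 toward ICM and 0 toward TE.

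AVIL, an actin-severing protein of the villin family, had 1.07 and 1.27 in ICM, against -1.35 and -1.43 in TE (difference 2.56 ± 0.21, adjusted p = 0.00698). VIM, the intermediate filament protein of mesenchymal cells, had 0.59 and 1.20 in ICM, against -1.40 and -1.17 in TE, and was not called in the fit to 8 arrays (adjusted p = 0.26). Its morula ratios in that fit were -2.59 and -0.18. In the fit to the 4 ICM and TE arrays its adjusted p was 0.013. PRPH, the neuronal intermediate filament protein peripherin, was the member lower in ICM, at -0.94 and -1.15 in ICM, against 0.20 and 0.34 in TE (difference -1.31 ± 0.14, adjusted p = 0.0133). Of 23 measured desmosome and adherens junction genes none was called, and 4 of them had an unadjusted p under 0.05, all toward TE. Of 28 tight junction genes, JAM3 alone was called, at 0.75 and 0.77 in ICM, against -0.16 and -0.76 in TE (difference 1.22 ± 0.17, adjusted p = 0.0241). Its adjusted p was 0.0534 in the fit to 4 arrays.

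Sterol genes had the lowest median of the 54 gene lists examined. Of 21 measured genes of cholesterol synthesis and uptake, 3 were called lower in ICM, none was called higher, and the median was -0.94. In 17 of the 21 every ICM value lay below every TE value, against 22.7% of all genes tested, and 16 had an unadjusted p under 0.05 in that direction, against 11.4%. The number called lower was 11 under median centring, 7 in the fit to the 4 ICM and TE arrays, 5 with the processed ratios that the authors deposited and 0 under normexp. INSIG1, which holds back sterol-driven transcription in the endoplasmic reticulum, had -0.86 and -0.78 in ICM, against 0.59 and 0.27 in TE (difference -1.25 ± 0.17, adjusted p = 0.023). SQLE, squalene epoxidase, had -0.09 and -0.22 in ICM, against 0.85 and 0.89 in TE (difference -1.02 ± 0.11, adjusted p = 0.0126). HMGCS1, which makes the substrate of HMG-CoA reductase, had -0.65 and -0.86 in ICM, against 0.21 and 0.32 in TE (difference -1.02 ± 0.12, adjusted p = 0.0155). For INSIG1 and HMGCS1 the TE arrays lay above and the ICM arrays below the pool, while SQLE was near the pool in ICM. CYP51A1, lanosterol demethylase, missed the adjusted p limit with -0.87 and -0.42 in ICM, against 0.18 and 0.56 in TE (adjusted p = 0.0527). Its other probe was called lower in ICM at -1.32 (adjusted p = 0.0173).

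Fatty acid genes had calls and tallies in different directions. Of 31 measured genes of fatty acid synthesis and storage, 2 were called higher in ICM and none lower, but 23 had a negative difference, and 5 had an unadjusted p under 0.05 toward ICM and 12 toward TE. The median was -0.06, and the fit to the 4 ICM and TE arrays called 3 higher and 2 lower. SCD5, a stearoyl-CoA desaturase, had 0.61 and 1.15 in ICM, against -1.08 and -1.07 in TE (difference 1.96 ± 0.17, adjusted p = 0.00795). DGAT2, which completes triglyceride synthesis, had a difference of 1.20 ± 0.14 (adjusted p = 0.0161). ACLY, which supplies cytosolic acetyl-CoA, had a difference of -1.18 and was not called (adjusted p = 0.0608). FABP3, a fatty acid-binding protein, had 0.73 and 0.87 in ICM, against -1.16 and -1.48 in TE (difference 2.12 ± 0.15, adjusted p = 0.00441), and all 4 of its probes were called.

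**Figure D3:**
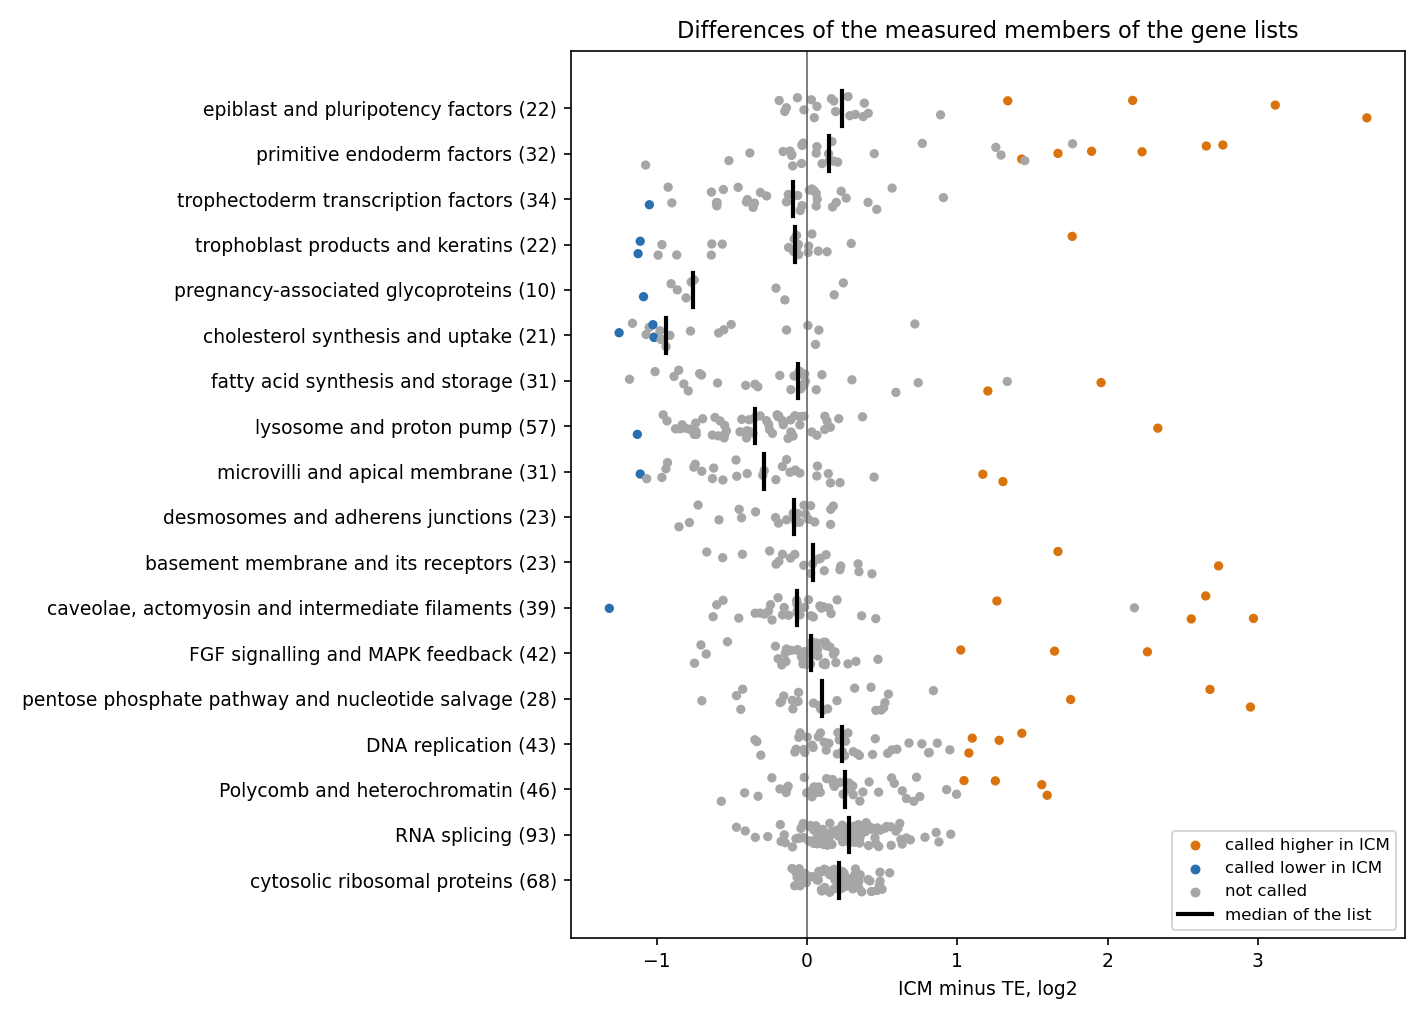
ICM minus TE log2 difference of every measured member of a selection of the 54 gene lists, one point per gene. Genes called higher or lower are in colour, and a black bar marks the median of each list (number of measured genes in brackets). The sterol and glycoprotein lists have medians of -0.94 and -0.76, and most other medians lie within 0.3 of 0.

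Lysosomal genes also lay mostly on the TE side. Of 57 measured genes of the lysosome and its proton pump, 48 had a negative difference, and the median was -0.34, but only 1 was called lower and 1 higher. ATP6V1A, the catalytic subunit of the proton pump, had -0.69 and -0.41 in ICM, against 0.18 and 0.98 in TE (difference -1.13 ± 0.18, adjusted p = 0.032). It was not called in the fit to 4 arrays (adjusted p = 0.0509) or with the processed ratios that the authors deposited (adjusted p = 0.0862). LAPTM4B, a lysosomal membrane protein, had 0.80 and 1.30 in ICM, against -1.36 and -1.21 in TE (difference 2.33 ± 0.16, adjusted p = 0.00433, 5.04-fold), with all 4 of its probes called. The LAPTM4B values stood apart from the rest of the list, whose members stayed near or below 0.

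Signalling genes differed through a few members rather than whole pathways. ID1, an inhibitor of basic helix-loop-helix factors and a target of BMP, was the only 1 of 24 measured BMP pathway genes called. It had 1.10 and 0.98 in ICM, against -1.44 and -2.15 in TE (difference 2.83 ± 0.22, adjusted p = 0.00576, 7.12-fold). ID3, its relative, had 1.45 and 0.72 in ICM, against -0.23 and -0.62 in TE (difference 1.51 ± 0.42), with an adjusted p of 0.133 in the fit to 8 arrays and 0.024 in the fit to 4. The ligands BMP2 and BMP4 had differences of 0.77 and 0.06 and were not called.

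Of 42 measured genes of FGF signalling and its feedback, 3 were higher in ICM, none was lower and the median was 0.03. FGFR4, a receptor for FGF, had 1.68 and 1.28 in ICM, against -0.56 and -1.02 in TE (difference 2.27 ± 0.09, adjusted p = 0.00255). Its TE spots were not above background on either array, so its fold is a bound, at least 4.47-fold, taken against the dimmest signal of probes above background. The other 2 of its 3 probes were not called, the lowest at -0.06. SPRY2, a feedback inhibitor of receptor signalling, had 0.80 and 0.80 in ICM, against -0.96 and -0.73 in TE (difference 1.65 ± 0.21, adjusted p = 0.0193). DUSP4, a phosphatase that acts on MAP kinases, had 0.85 and 0.04 in ICM, against -0.49 and -0.67 in TE (difference 1.02 ± 0.16, adjusted p = 0.0306). The spread of DUSP4 between ICM arrays was wide, and it was not called in the fit to 4 arrays (adjusted p = 0.0696). The other probe of DUSP4 gave a difference of -0.08. SPRY4, another feedback gene, is listed by the study as higher in ICM. Its 2 probes gave differences between -0.002 and 0.24 here and were not called. Why the results for SPRY4 differ was not tested. FGFR1 at 0.33, FGFR2 at -0.19 and DUSP6 at 0.12 were not called.

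KIT, the receptor of stem cell factor, had 1.63 and 1.61 in ICM, against -1.06 and -1.17 in TE (difference 2.73 ± 0.11, adjusted p = 0.00255, 6.64-fold). Only 1 of its 2 probes was called, and the other gave a difference of 0.06. KITLG, the gene of its ligand, had a difference of 0.08 and was not called. STAT3, which carries the signal of LIF and interleukin-6, had 0.87 and 0.67 in ICM, against -0.56 and -0.71 in TE (difference 1.40 ± 0.10, adjusted p = 0.00532), the only call among 24 genes of that pathway. Of the 6 probes of STAT3 1 was called, and the lowest gave -0.08. GRP, the gastrin-releasing peptide, had 1.32 and 1.09 in ICM, against -1.59 and -1.43 in TE (difference 2.71 ± 0.20, adjusted p = 0.00561, 6.57-fold). The peptide gene EDN3, endothelin 3, had 1.15 and 1.22 in ICM, against -0.58 and -0.60 in TE (difference 1.78 ± 0.13, adjusted p = 0.00532). In each of these genes both ICM arrays were above the pool and both TE arrays below it.

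In the WNT list of 45 genes 1 was called in each direction. WNT2B, a ligand, had -0.72 and -0.64 in ICM, against 0.31 and 0.49 in TE (difference -1.08 ± 0.15, adjusted p = 0.0255). TCFL2, an older symbol of the beta-catenin partner TCF7L2, had 0.48 and 0.89 in ICM, against -0.34 and -0.36 in TE (difference 1.03 ± 0.13, adjusted p = 0.0191). None of the 24 nodal, activin and TGF-beta genes was called by limma (2 had an unadjusted p under 0.05 toward ICM and 3 toward TE), nor any of the 22 Notch genes by its brightest probe (4 toward ICM and 1 toward TE). A dimmer probe of LFNG, which adds sugars to Notch, was called at 2.24 (adjusted p = 0.0085).

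Of 37 measured aquaporins, ion pumps and channels, 4 were called higher in ICM and 0 lower, against 1.34% and 0.231% of all genes tested. The list was otherwise near even: its median was 0.01, and 7 had an unadjusted p under 0.05 toward ICM and 6 toward TE. CLIC6, a chloride intracellular channel protein, had 0.53 and 1.21 in ICM, against -1.94 and -1.95 in TE (difference 2.81 ± 0.26, adjusted p = 0.00896, 7.03-fold). FXYD6, a regulator of the sodium pump, KCNK1, a potassium channel, and SCNN1B, a subunit of the epithelial sodium channel, had differences of 1.53, 1.29 and 1.06 (adjusted p 0.0283, 0.0136 and 0.0133). TMEM206, the proton-activated chloride channel and not in that list, had 1.21 and 1.50 in ICM, against -1.15 and -1.29 in TE (difference 2.57, adjusted p = 0.0027). Of 263 measured solute carriers 3 were higher and 3 were lower in ICM, and 19 had an unadjusted p under 0.05 toward ICM and 47 toward TE. Among the lower ones, SLC25A21, a mitochondrial oxodicarboxylate carrier, had -0.80 and -0.86 in ICM, against 0.43 and 0.42 in TE (difference -1.25 ± 0.09, adjusted p = 0.00516).

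Single metabolic enzymes were called, beside 1.34% of all genes tested called higher in ICM and 0.231% called lower. Among 28 measured genes of the pentose phosphate pathway and nucleotide salvage, AK4, TKTL1 and DCK were higher in ICM and none was lower, with a median of 0.10. AK4, a mitochondrial adenylate kinase, had 0.96 and 0.82 in ICM, against -1.91 and -2.21 in TE (difference 2.95 ± 0.15, adjusted p = 0.0027, 7.73-fold), while its other probe gave 0.22. TKTL1, a transketolase-like protein, had 0.87 and 1.13 in ICM, against -1.45 and -1.92 in TE (difference 2.68 ± 0.31, adjusted p = 0.0152, 6.42-fold). The transketolase gene TKT itself had a difference of 0.52 and was not called. DCK, deoxycytidine kinase, had 0.75 and 0.72 in ICM, against -0.98 and -1.06 in TE (difference 1.75 ± 0.14, adjusted p = 0.00698). In glycolysis PFKM, the muscle type phosphofructokinase, was the only call of 28 genes, at 1.29 ± 0.13 (adjusted p = 0.0121).

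Of 26 measured retinoid and xenobiotic enzymes, 3 were higher in ICM and 1 was lower. CYP1A1, an oxidase of foreign compounds, had 1.31 and 1.05 in ICM, against -0.80 and -0.94 in TE (difference 2.05 ± 0.10, adjusted p = 0.00255). LRAT, which stores retinol as an ester, had 1.10 and 1.21 in ICM, against -0.64 and -0.62 in TE (difference 1.78 ± 0.15, adjusted p = 0.00737). ALDH1A3, which makes retinoic acid, was the lower one, at -0.91 and -0.45 in ICM, against 0.31 and 0.60 in TE (difference -1.14 ± 0.18, adjusted p = 0.0324). By their brightest probes LRAT and ALDH1A3 lay on opposite sides, with 2 of 4 and 1 of 4 probes called. The probes of ALDH1A3 ranged from -1.14 to 0.21. Those of the related gene ALDH1A2 ranged from -0.19 to 0.20, with none called.

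The called chromatin and replication genes were higher in ICM, a direction called in 1.34% of all genes tested, against 0.231% called lower. Of 46 measured Polycomb and heterochromatin genes, 4 were higher in ICM and none was lower, with a median of 0.25. KDM2B, which brings a Polycomb complex to CpG islands, had 0.84 and 1.10 in ICM, against -0.63 and -0.63 in TE (difference 1.60 ± 0.15, adjusted p = 0.00934). BCOR, a subunit of the same complex, had 0.87 and 1.23 in ICM, against -0.40 and -0.62 in TE (difference 1.56 ± 0.18, adjusted p = 0.0144). L3MBTL2, of another Polycomb complex, and SMARCA2, a chromatin remodeller, had differences of 1.25 and 1.05. For KDM2B and L3MBTL2 1 of 4 probes was called, and for BCOR 2 of 6. The lowest probes of these genes gave -0.11, -0.08 and -0.05. The number of Polycomb and heterochromatin genes called higher was 3 under median centring and 0 under normexp. Of 17 DNA methylation genes, HELLS, a helicase needed for methylation of repeats, was called at 1.79 ± 0.19 (adjusted p = 0.0133), while UHRF1 at 0.89, DNMT1 at 0.73 and DNMT3A at -0.43 were not.

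Of 43 measured DNA replication genes, 4 were higher in ICM and none was lower, with a median of 0.24. The number called higher was 2 under median centring, 2 under normexp and 2 in the fit to the 4 ICM and TE arrays. RFC1, the large subunit of the clamp loader, had 1.08 and 0.84 in ICM, against -0.32 and -0.61 in TE (difference 1.43, adjusted p = 0.00382). UNG, uracil-DNA glycosylase, TOP2A, a topoisomerase, and ORC1, of the origin recognition complex, had differences of 1.28, 1.10 and 1.08. TOP2A and ORC1 were not called in the fit to 4 arrays (adjusted p 0.0581 and 0.0724). STMN1, a microtubule-destabilising protein, was among 2 of 39 mitosis genes called, at 0.64 and 1.09 in ICM, against -1.18 and -0.99 in TE (difference 1.95 ± 0.12, adjusted p = 0.0033).

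Large gene families of basic cell functions showed small shifts with no calls by their brightest probes. Dimmer probes of the splicing genes SRSF2 and RBMX and of RPL36A, a ribosomal protein, were called at 1.45, 1.21 and 1.12. The 93 splicing genes had a median of 0.28 with 78 of them positive, and 40 had an unadjusted p under 0.05 toward ICM against 4 toward TE. The 68 cytosolic ribosomal protein genes had a median of 0.21 with 59 positive (9 toward ICM and 0 toward TE at that p). The 83 respiration genes had a median of 0.20 (21 and 1). These medians moved with the scaling: under median centring they were 0.14 for splicing and 0.07 for cytosolic ribosomal proteins. The median of the 65 mitochondrial ribosomal protein genes was 0.11 (13 and 2), and it was -0.02 under median centring.

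The remaining genes with the largest differences belong to no one pathway. Toward ICM they were MYH1, a skeletal muscle myosin heavy chain of which 1 of 5 probes was called (6.36-fold), MME, the peptidase neprilysin (6.16-fold), BTK, a tyrosine kinase of B cells (6.01-fold), TUBA8, an alpha tubulin (5.78-fold), and RGS20, a regulator of G protein signalling (5.42-fold). Toward TE the largest was CLEC4E, a C-type lectin receptor, at -0.64 and -1.08 in ICM, against 0.60 and 0.42 in TE (difference -1.37 ± 0.11, adjusted p = 0.00634, 2.58-fold higher in TE). ENPP1, a cell surface pyrophosphatase, followed with -0.59 and -0.66 in ICM, against 0.72 and 0.56 in TE (difference -1.26 ± 0.17, adjusted p = 0.0231). SLC23A1, a vitamin C transporter, MGST1, a membrane-bound glutathione transferase, and IL33, a cytokine of the interleukin-1 family, had differences of -1.14, -1.11 and -1.07. SLC23A1 was not called in the fit to 4 arrays (adjusted p = 0.057). Compared with the genes higher in ICM, these all lay within a narrow band of size.

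Genes of other cells that a dissected embryo could carry were checked beside these results. Among 24 genes of cumulus and granulosa cells, 1 was called higher in ICM, TSG-6 at 1.12 ± 0.18 (adjusted p = 0.0342), a hyaluronan-binding protein, and the median was 0.04. Of 20 oocyte and germ cell genes and of 21 genes of blood, endothelium and fibroblasts none was called by limma, with medians of -0.04 for both lists. At an unadjusted p under 0.05 the oocyte list had 1 gene toward ICM and 0 toward TE, and the other had 2 in each direction. Of the 44 immediate early and stress genes 2 were higher in ICM, HSPB1 at 1.43 and DDIT4 at 1.42, while 3 had an unadjusted p under 0.05 toward ICM and 15 toward TE, and the median of that list was -0.18. A dimmer probe of GADD45A, a member of the list, was called lower in ICM at -1.02. The part of TE cells left on the ICM, or of handling during dissection, in these differences was not tested.

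The called genes also differed in how they behaved between day 9 blastocysts and day 5 morulae, contrasted in the same fit. Over all genes tested, 10.2% were called higher and 7.36% lower in blastocysts than in morulae. Of the 29 genes lower in ICM, 24 were higher in blastocysts (82.8%) and none was lower. Of the 168 genes higher in ICM, 23 were higher in blastocysts (13.7%), 49 were lower in blastocysts (29.2%) and 96 were neither. The blastocyst arrays are not in the ICM and TE contrast, but all ratios share the blastocyst pool, and the ICM and TE arrays share 1 estimate of spread with them. The median morula ratio was 0.27 for the genes higher in ICM and -3.41 for those lower in ICM, against -0.04 over all genes.

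**Figure D4:**
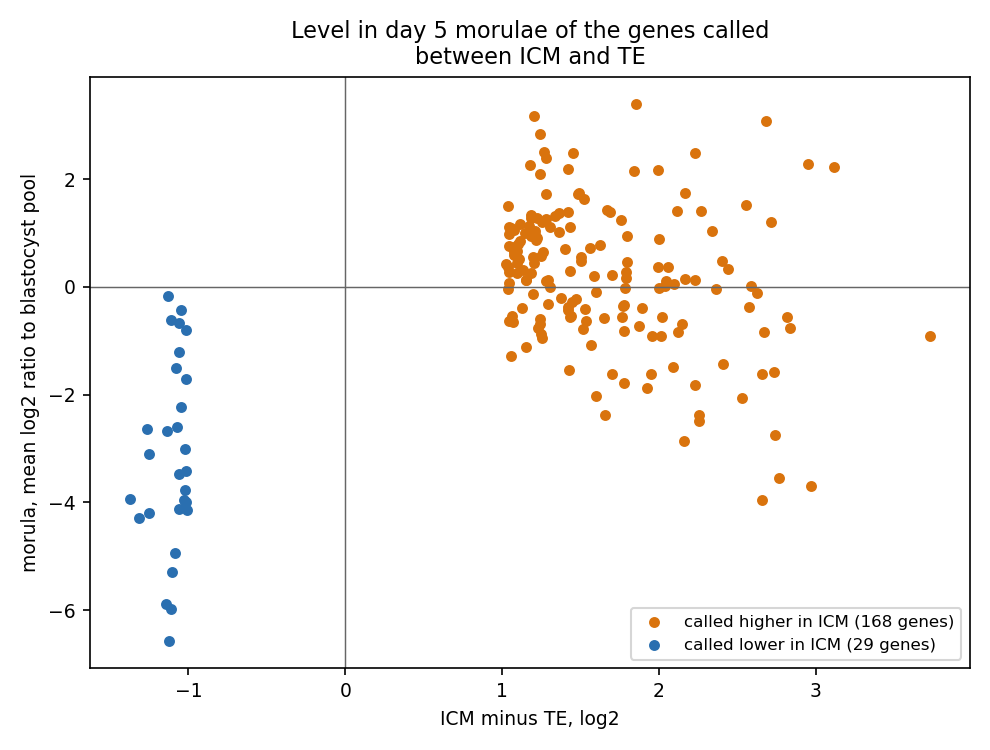
Mean log2 ratio of day 5 morulae to the blastocyst pool (vertical axis) against the ICM minus TE log2 difference (horizontal axis) for the 168 genes called higher and the 29 called lower in ICM. All 29 genes lower in ICM lie below 0 in morulae, and the genes higher in ICM scatter to both sides of 0.

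The genes higher in ICM fell on both sides in the morula. SOX2, AK4 and TKTL1 were lower in blastocysts than in morulae, by log2 differences of -2.29, -2.15 and -2.96, and the morula ratios of SOX2 were 2.08 and 2.37, above those of ICM. ACTB, CAV1, FLRT3, NID1 and KIT were higher in blastocysts, by 3.84, 3.77, 3.45, 2.78 and 1.56. The morula ratios of CAV1 were -3.69 and -3.70, below those of TE. NANOG, with morula ratios of -1.0 and -0.83, lay between ICM and TE, and its difference of 0.88 between blastocysts and morulae was not called. On the TE side PAGE4, ANXA3 and PRPH were higher in blastocysts by 6.72, 6.17 and 4.33, with PAGE4 at -6.54 and -6.61 in morulae.

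Probe choice limited what single genes can carry. Each gene is given by its probe of highest mean intensity, and several probes existed for 157 of the 197 called genes. In 52 of these a second probe passed both limits with the same sign, and in 0 with the other sign. A further 57 genes were called only by a dimmer probe, 48 higher and 9 lower in ICM. Among these were A2M, a protease inhibitor, at 2.73 with -0.18 for its brightest probe, and MYL9, a myosin light chain, at 1.29 with -0.28.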

How the data were processed

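RNA from 2 biological replicates of each group was hybridised with the blastocyst pool on bovine 44K two-colour arrays, and the deposited files hold mean spot intensity per channel as measured by the authors in Imagene. The deposited series matrix holds the authors' processed log2 ratios, used as an alternative. Of 45220 spots, 1567 control spots were left out. Log2 ratios were turned to sample over pool and loess-normalised within arrays without background subtraction. limma 3.58.1 in R 4.3.3 fitted group means and a dye term (the replicate block) to all 8 arrays, with Benjamini-Hochberg adjustment over 43653 gene probes. With 2 samples per group, p-values rest on a spread pooled over the replicates of ICM, TE, blastocyst and morula after the dye term. That spread is moderated across probes and describes these samples only. The script was tested on simulated data. Names came from the platform annotation. Of 12552 symbols, 11600 were current in RefSeq (ARS-UCD2.0), 922 were synonyms and 30 were not found. Sequences and promoter motifs were not analysed here. The text names the 20 largest called differences in each direction, called and brightest members of the 54 gene lists, and genes the paper discusses. A few others (other-probe genes) were chosen after their values were seen. Members and lists were chosen with earlier results of these data known. A spot counted as above background beyond 2 background SD, and as saturated at 65000. The 18 alternatives, among them normexp with an offset of 50, are given in the closing section.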

Additional observations from a re-analysis of the deposited data

Results flagged for a closer look

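Gene probes without a gene name lay outside the comparison of named genes and carried a signal too. Of 15701 such probes, 172 were called higher and 27 lower in ICM (1.27%). BTAA005740 had log2 ratios of 0.92 and 1.22 in ICM, against -1.91 and -2.37 in TE, a difference of 3.21. BTAA006448 had a difference of 3.00.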

How the results depend on the processing

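None of the 107 called genes of the lists and rankings changed sign under any of the 18 alternatives. Over all genes, AK4, DHRS7, LAPTM4B, NANOG, SERPINA5, STMN1 and TMEM206 were called under all 18, and every other called gene lost its call or went untested under at least 1. Of the 107, normexp ended 88 calls and the mean over probes 46, and leaving out ICM replicate 1, ICM replicate 2, TE replicate 1 or TE replicate 2 ended 66, 96, 84 and 84. Normexp left 27 genes higher and 0 lower in ICM (1085 and 944 at an unadjusted p under 0.05), and 59 and 2 gene probes. Median centring gave 78 genes and 175 probes lower. A 1.5-fold minimum gave 314 genes higher and 196 lower, and 823 and 437 probes. No fold minimum gave 330 and 227 genes, and 859 and 497 probes. Averaging the probes of each gene gave 98 and 16 genes. Leaving out 1 array gave 17 to 69 genes higher and 0 to 2 lower, and 43 to 164 probes higher and 0 to 3 lower, where the lone sample of a group is assumed to vary like the others. Without ICM replicate 2, 886 genes higher and 925 lower had an unadjusted p under 0.05. Quantile normalisation of average intensities (168 and 29) leaves the fitted log2 ratios as they were, so its counts could not differ. The 1.5-fold minimum and no fold minimum could likewise only add calls. Within 1.5 times of 168 and 29 genes were the authors' processed ratios (164 and 33), the upper 60% of intensity (184 and 36) and probes above background only (175 and 30). So were the 4 ICM and TE arrays alone (186 and 35) and the fit without blastocyst arrays (184 and 32). The brightest unsaturated probe (167 and 29) and adjustment over 1 probe per gene (188 and 36) were too. The cause of these shifts was not tested.

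Replicate numbers coincide with the dye, and the replicate differences of ICM and TE correlated at 0.34 across probes (lowest over all pairs of groups 0.20). Without the replicate block 145 genes were higher and 22 lower. Among the genes named in the report ALDH1A3, ATP6V1A, DUSP4, GATA3, KRT7, ORC1, PAG2, SLC23A1, TOP2A and TSG-6 were then not called. With the authors' processed ratios ATP6V1A, DUSP4, GLUD1, PAG2 and SPARC were not called.

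GLUD1 was the only called gene with saturated spots. FGFR4, CD8B and LRRC49 were not above background in TE on either array, which leaves bounds of at least 4.47-fold, 3.31-fold and 3.45-fold. The number of arrays limits the precision.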
